A study of Mus musculus with 30 samples.

Results

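The Rab GTPases were examined as one gene family across 6 groups of mouse primary microglia. Members were the protein-coding genes whose symbol is Rab followed directly by a number and at most a single letter, with nothing after. All transcripts of a gene were summed. Rab-binding proteins with longer names, such as Rab11fip1, were thus not members. The rule used no measured value and gave 59 of the 38031 genes with a row in the table. Of these, 49 were among the 14346 genes with enough counts to be tested, and the other 10 (Rab3b, Rab3c, Rab9b, Rab17, Rab25, Rab37, Rab38, Rab40b, Rab42 and Rab44) had low counts. Rab17 had 0 counts in all 30 libraries. Both Rab10 and Rab12, the kinase substrates that mark the family here, were detected in every library, at 90.7 to 232.6 and 39.3 to 77.0 TPM (the count scaled for transcript length and library depth).

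RNA sequencing was done on microglia, the resident macrophages of the brain, from C57BL/6 mice at postnatal day 21. Wild-type mice gave 5 control, 6 lipopolysaccharide (LPS) and 4 α-synuclein fibril libraries, and Lrrk2-/- mice, which lack the kinase gene Lrrk2 and are called knockout (KO) here, gave 6 control, 4 LPS and 5 fibril libraries. LPS comes from the outer membrane of bacteria and is sensed through a Toll-like receptor, and the fibrils are aggregates of α-synuclein, the protein deposited in Parkinson's disease. The sources used here give no dose, incubation time or number of animals behind a library, and nothing says that libraries of one group came from separate cultures, so p-values measure the spread between these libraries, which may be technical.

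Rab proteins are small GTPases that label the membranes of the cell. Bound to GTP they recruit effectors that move, tether and fuse vesicles; exchange factors (GEFs) switch them on, GTPase-activating proteins with a TBC domain (GAPs) switch them off, and GDI and escort proteins carry their lipid-modified form through the cytosol. Lrrk2 phosphorylates a subset of Rabs in the switch region, among them Rab8a, Rab10, Rab12, Rab29, Rab35 and Rab3 proteins, and microglia use the family for phagocytosis, lysosomal delivery and cytokine secretion.

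Summed gene counts ran from 8936310 to 35677005 per library (median 20432234). Lrrk2 itself was at 6.87 to 16.7 CPM (the count scaled for library depth alone) in the wild-type libraries and at 0.731 to 4.68 in the KO libraries, so every library matched its genotype label. All 8 microglial markers looked at were measured, with a mean of 5.78 to 6.87 log2 CPM per library. Markers of other brain cells were also present and differed between groups: the mean log2 CPM of 31 tested of 36 listed markers of astrocytes, oligodendrocytes, neurons, fibroblasts and endothelium was -0.76 to -0.40 in wild-type fibril, -0.29 to 2.68 in wild-type control and -0.70 to 2.83 in wild-type LPS libraries, replicate 6 being the lowest of each of the last 2 groups. It was 1.09 to 2.41 in KO fibril, 0.70 to 2.77 in KO LPS and 1.21 to 3.49 in KO control libraries, with group means of 2.43 in KO and 1.33 in wild-type controls. The wild-type fibril libraries also varied least among themselves, with a common biological coefficient of variation of 0.0799 against 0.253 to 0.368 in the other 5 groups. In bulk RNA, fewer cells of a type and less RNA per cell cannot be told apart.

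The family spanned the whole range of expression. By mean TPM over all libraries, 11 members were at 100 or more, 21 at 10 to under 100, 10 at 1 to under 10 and 17 under 1. The 5 most abundant held 38.3% of the family's summed TPM: Rab5c (early endosomes) at 304 ± 28.5 (SD, n = 30), Rab11a (recycling endosomes) at 254 ± 48.8, Rab1a (transport from the endoplasmic reticulum to the Golgi) at 189.9 ± 40.6, Rab7 (late endosomes and lysosomes) at 185 ± 27.6 and Rab31 (traffic between the trans-Golgi and endosomes) at 172 ± 30.8. Among the Lrrk2 substrates, Rab10 ranked 8 in the family at 144 ± 31.5 TPM, Rab8a ranked 17 at 60.2 ± 8.24, Rab12 ranked 19 at 58.0 ± 8.74 and Rab29 ranked 26 at 26.0 ± 4.86. The summed TPM of all members moved little between groups: 2791 ± 164 in wild-type controls (SD, n = 5), 2872 ± 99.2 with LPS (n = 6) and 3060 ± 134 with fibrils (n = 4), and 2840 ± 366 in KO controls (n = 6), 2828 ± 176 with LPS (n = 4) and 2931 ± 267 with fibrils (n = 5).

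**Figure D1:**
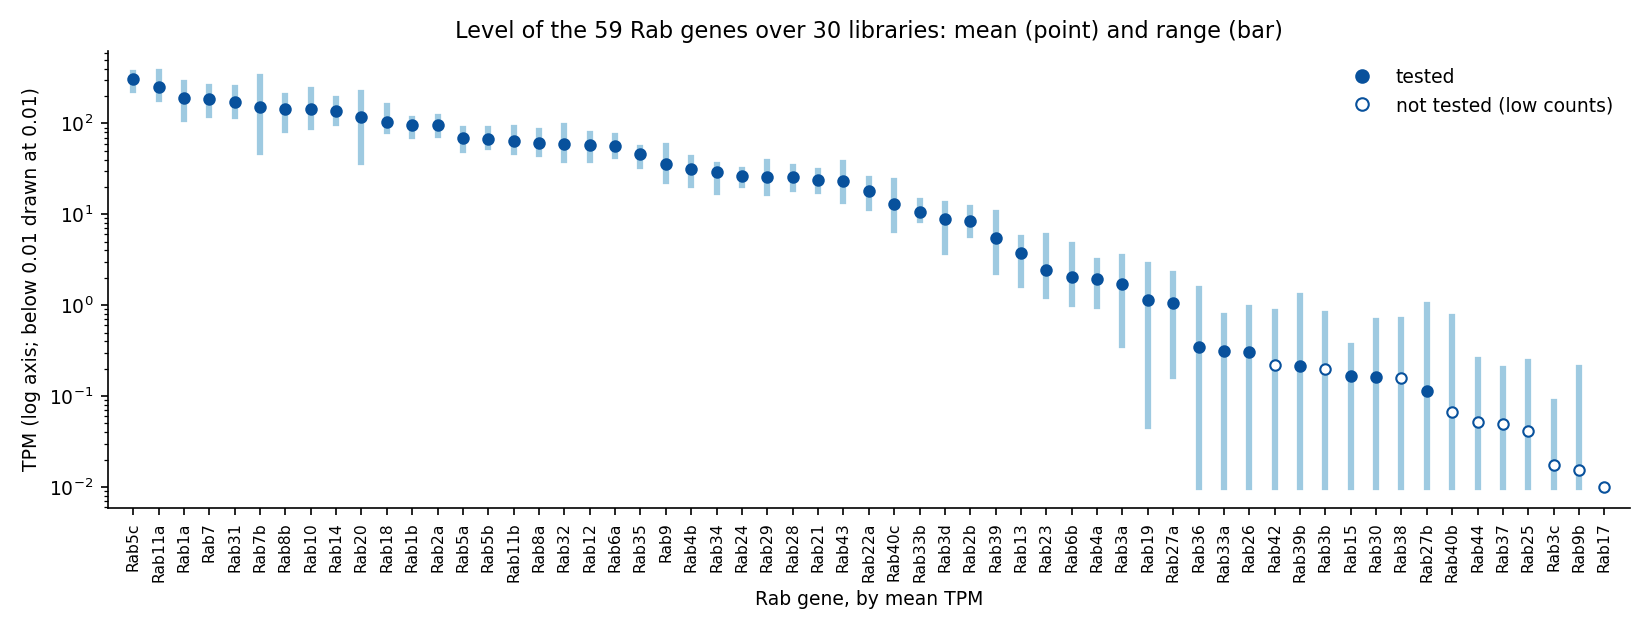
Mean TPM of each of the 59 Rab genes over the 30 libraries on a log axis, with the range over libraries as a bar and open points for the 10 genes with too few counts to test. Levels run from Rab5c at 304 TPM down to Rab17, which had 0 counts, and 17 genes lie under 1 TPM.

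Promoters are shown for 4 members on which the results turn: Rab12 and Rab5a, which were called in all 4 treatment comparisons, Rab10, with the largest rise with fibrils, and Rab20, with the largest rise with LPS. Sequences are from RefSeq (GRCm38.p6), whose promoter table held 48 of the 59 members. Each run lies within the 250 bases before the annotated start, reads 5′ to 3′ on the gene's strand and leaves out bases that the annotation places in an exon of the same gene (59 bases of the Rab12 window and 70 of the Rab20 window). Capitals mark matches on either strand to CACGTG (the E-box at the core of the lysosomal gene element), TGACGTCA (the cAMP response element) or CCAAT (written ATTGG where it lies on the other strand); AP-1 (TGANTCA), the antioxidant response core (TGACNNNGC) and the NF-kB consensus were also searched and had no match in these runs. The runs are Rab12 at chr17:66519730-66519920 (minus strand), Rab10 at chr12:3309970-3310219 (minus strand), Rab20 at chr8:11478711-11478890 (minus strand) and Rab5a at chr17:53478984-53479233 (plus strand).
Rab12: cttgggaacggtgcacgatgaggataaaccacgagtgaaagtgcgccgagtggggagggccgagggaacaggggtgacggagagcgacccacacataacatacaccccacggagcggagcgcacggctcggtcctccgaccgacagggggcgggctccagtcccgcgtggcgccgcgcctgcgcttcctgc
Rab10: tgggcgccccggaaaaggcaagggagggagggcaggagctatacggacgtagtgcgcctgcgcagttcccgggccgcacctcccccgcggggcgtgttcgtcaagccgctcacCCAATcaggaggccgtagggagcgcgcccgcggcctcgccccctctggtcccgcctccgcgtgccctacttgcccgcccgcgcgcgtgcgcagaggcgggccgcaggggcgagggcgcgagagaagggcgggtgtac
Rab20: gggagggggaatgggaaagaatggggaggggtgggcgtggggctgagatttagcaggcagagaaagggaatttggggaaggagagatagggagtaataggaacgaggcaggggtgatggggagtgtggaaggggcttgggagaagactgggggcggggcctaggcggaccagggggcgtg
Rab5a: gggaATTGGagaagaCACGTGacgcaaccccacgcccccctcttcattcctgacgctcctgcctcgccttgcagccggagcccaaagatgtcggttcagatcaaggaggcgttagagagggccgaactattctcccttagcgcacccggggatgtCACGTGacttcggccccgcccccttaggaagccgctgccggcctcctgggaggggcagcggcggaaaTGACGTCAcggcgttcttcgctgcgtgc

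The Rab5a run held CACGTG at 2 positions, starting 235 and 95 bases before the start, and TGACGTCA starting 28 bases before it; both motifs read the same on either strand, so each is 1 site. The Rab10 run held 1 CCAAT, and the Rab12 and Rab20 runs held none of the motifs. Over the full windows, which reach 50 bases past the start, CACGTG was present for 6 of 48 members (12.5%: Rab5a, Rab20, Rab21, Rab23, Rab24 and Rab27a) and for 8.09% of all 27025 genes in the table. CCAAT was present for 26 members (54.2%, against 41.1% of all genes), TGACNNNGC for 9 (18.8% against 14.0%), TGANTCA for 3 (6.25% against 8.97%), TGACGTCA for 2 (4.17% against 2.03%) and the NF-kB consensus for 3 (6.25% against 6.55%). A match describes letters in a window and was not compared with binding.

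The question asked of LPS was how the family responds to an inflammatory stimulus. In wild-type microglia 10 of the 49 tested members were called (adjusted p under 0.05, edgeR quasi-likelihood test with Benjamini-Hochberg adjustment over all genes), 7 higher (Rab1a, Rab5a, Rab7, Rab12, Rab18, Rab20 and Rab21) and 3 lower (Rab3a, Rab23 and Rab40c). Of all genes tested, 15.1% were called, 7.1% higher and 8.03% lower, and the members' median log2 fold change was 0.02 against -0.02 for all genes. In KO microglia 6 members were called, 3 higher (Rab5a, Rab12 and Rab20) and 3 lower (Rab3a, Rab23 and Rab40c), where 13.7% of all genes were called, 6.36% higher and 7.35% lower (medians 0.06 and -0.04). These comparisons share no library but take their spread from a single fit of all 30 libraries. The 6 members called in KO cells were also called in wild-type cells with the same sign, which is 100% of the KO list and 60% of the wild-type list. The same overlap was not computed over all genes. Scaled by library size alone, the all-gene median became -0.23 in wild-type and -0.21 in KO cells, and the calls were 2 higher and 7 lower, and 2 higher and 5 lower. The share of all genes called under that scaling is not given here, so these counts are not read as a result about the members.

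Rab20, which acts in phagosome maturation in macrophages, had the largest change with LPS. It was at 38.2, 31.1, 55.2, 73.2 and 93.6 CPM in the wild-type control libraries and at 149.7 at the lowest, 182 at the median and 227 at the highest in the 6 LPS libraries, and in KO cells at 41.9 at the lowest, 55.3 at the median and 98.8 at the highest in control and 204, 215, 183 and 182 in LPS libraries. Every LPS library was far above every control library of its genotype, with no overlap; among KO controls, replicate 4 was well above the other 5. The log2 fold change was 1.67 ± 0.22 (SE, 3.19-fold, adjusted p = 2.04e-06) in wild-type and 1.69 ± 0.23 (3.22-fold, adjusted p = 2.94e-06) in KO cells.

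Rab12, which directs recycling receptors to lysosomes and is a Lrrk2 substrate, rose less but with little spread. Its wild-type control libraries were at 53.7, 50.4, 58.8, 55.4 and 57.8 CPM and its 6 LPS libraries at 67.7 at the lowest, 82.1 at the median and 94.3 at the highest. KO controls were at 56.9 at the lowest, 60.5 at the median and 66.8 at the highest and KO LPS libraries at 87.4, 85.9, 82.4 and 85.5. In neither genotype did the groups overlap. The log2 fold changes were 0.57 ± 0.07 (adjusted p = 3.31e-07) and 0.47 ± 0.07 (adjusted p = 1.81e-05).

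The early endosome Rabs had 2 of 8 tested members called with LPS in wild-type cells and 1 of 8 in KO cells. Rab5a, which drives fusion of early endosomes, was at 92.9, 83.1, 91.3, 91.3 and 98.2 CPM in wild-type controls and 94.0 at the lowest, 111 at the median and 117 at the highest with LPS. The LPS libraries were higher except replicate 1, which lay within the control range. The log2 fold change was 0.26 ± 0.06 (adjusted p = 0.00220) in wild-type and 0.21 ± 0.06 (adjusted p = 0.0215) in KO cells. Rab21, an endosomal Rab that moves integrins, rose by 0.38 ± 0.09 on the log2 scale in wild-type cells (adjusted p = 0.00551); in KO cells its value was 0.27 ± 0.10 (adjusted p = 0.0755). The KO call of Rab5a was lost without KO control replicate 1 (adjusted p = 0.0529) or without KO LPS replicate 1, 2 or 3 (0.0582, 0.0628 and 0.0639), with no filter on low counts (0.141), in a fit of only the compared groups (0.122), without the 7 libraries described below (0.0598) or with the other-cell score as a covariate (0.0526). Scaled by library size alone, the Rab5a calls were lost in both genotypes (adjusted p = 0.655 and 0.761), as were those of Rab21, Rab7 and Rab1a in wild-type cells (0.164, 0.176 and 0.107).

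Rab7, the Rab of late endosomes and lysosomes, and Rab1a rose in wild-type cells by 0.39 ± 0.11 (adjusted p = 0.0146) and 0.47 ± 0.14 (adjusted p = 0.0157) on the log2 scale. Rab1a was at 185, 253, 261, 252 and 283 CPM in controls and 301 at the lowest, 332 at the median and 386 at the highest with LPS, without overlap, control replicate 1 being the lowest. Without that library neither was called (adjusted p = 0.0669 for Rab7 and 0.0714 for Rab1a), and Rab7 also lost its call without LPS replicate 6 (0.0561). Rab18, found on lipid droplets and the endoplasmic reticulum, rose by 0.35 ± 0.12 (adjusted p = 0.0450). The call was lost without any wild-type control replicate but 3 or any wild-type LPS replicate but 1 (0.0519 to 0.149) and without any of 8 libraries of the other groups (0.0507 to 0.0607). It was also lost when scaled by library size alone (0.387), with no filter on low counts (0.102) or with protein-coding transcripts only (0.0686). None of Rab7, Rab1a and Rab18 was called in KO cells, where the log2 fold changes were 0.12 ± 0.12 (adjusted p = 0.570), 0.15 ± 0.14 (0.574) and 0.12 ± 0.13 (0.623); their LPS responses were not shown to differ between genotypes (adjusted p = 0.992, 0.992 and 0.992 for the differences).

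The members that fell with LPS were of lower abundance. Rab3a, a Rab of regulated secretion best known from synaptic vesicles, was at 2.21, 2.54, 2.29, 1.76 and 1.28 CPM in wild-type controls and at 0.5003 at the lowest, 0.771 at the median and 1.02 at the highest with LPS. All LPS libraries were below all controls, and the fold change was -1.38 ± 0.30 on the log2 scale (adjusted p = 0.00132). In KO cells it was -1.45 ± 0.33 (adjusted p = 0.00280). The KO groups overlapped, with 0.930 at the lowest, 2.17 at the median and 3.16 at the highest in controls and 0.843, 0.380, 0.595 and 1.12 with LPS, where replicate 4 lay within the control range. Rab40c, which carries a SOCS box and joins ubiquitin ligases, fell by 0.81 ± 0.14 on the log2 scale in wild-type cells (adjusted p = 5.54e-05) and by 0.70 ± 0.15 in KO cells (adjusted p = 0.00111). Rab23, a negative regulator of hedgehog signalling, fell by 0.53 ± 0.16 (adjusted p = 0.0173) and 0.94 ± 0.17 (adjusted p = 0.000211). The wild-type call of Rab23 was lost without control replicate 2 (0.104) or LPS replicate 2 (0.0527), and in a fit of only the compared groups (0.0660), as was the KO call of Rab3a (0.0705). Counting protein-coding transcripts only, which held 68.8% of the counts of Rab23 and 65.3% of those of Rab40c, ended the calls of Rab23 in both genotypes (adjusted p = 0.554 and 0.167) and that of Rab40c in wild-type cells (0.0965). Rab3a and Rab40c overlap other genes (mean counts 32.2 for Rab3a against 234 for Mpv17l2 on the opposite strand, and 444 for Rab40c against 47.0 for Gm10012), and the sources used here do not say whether counting used strand.

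**Figure D2:**
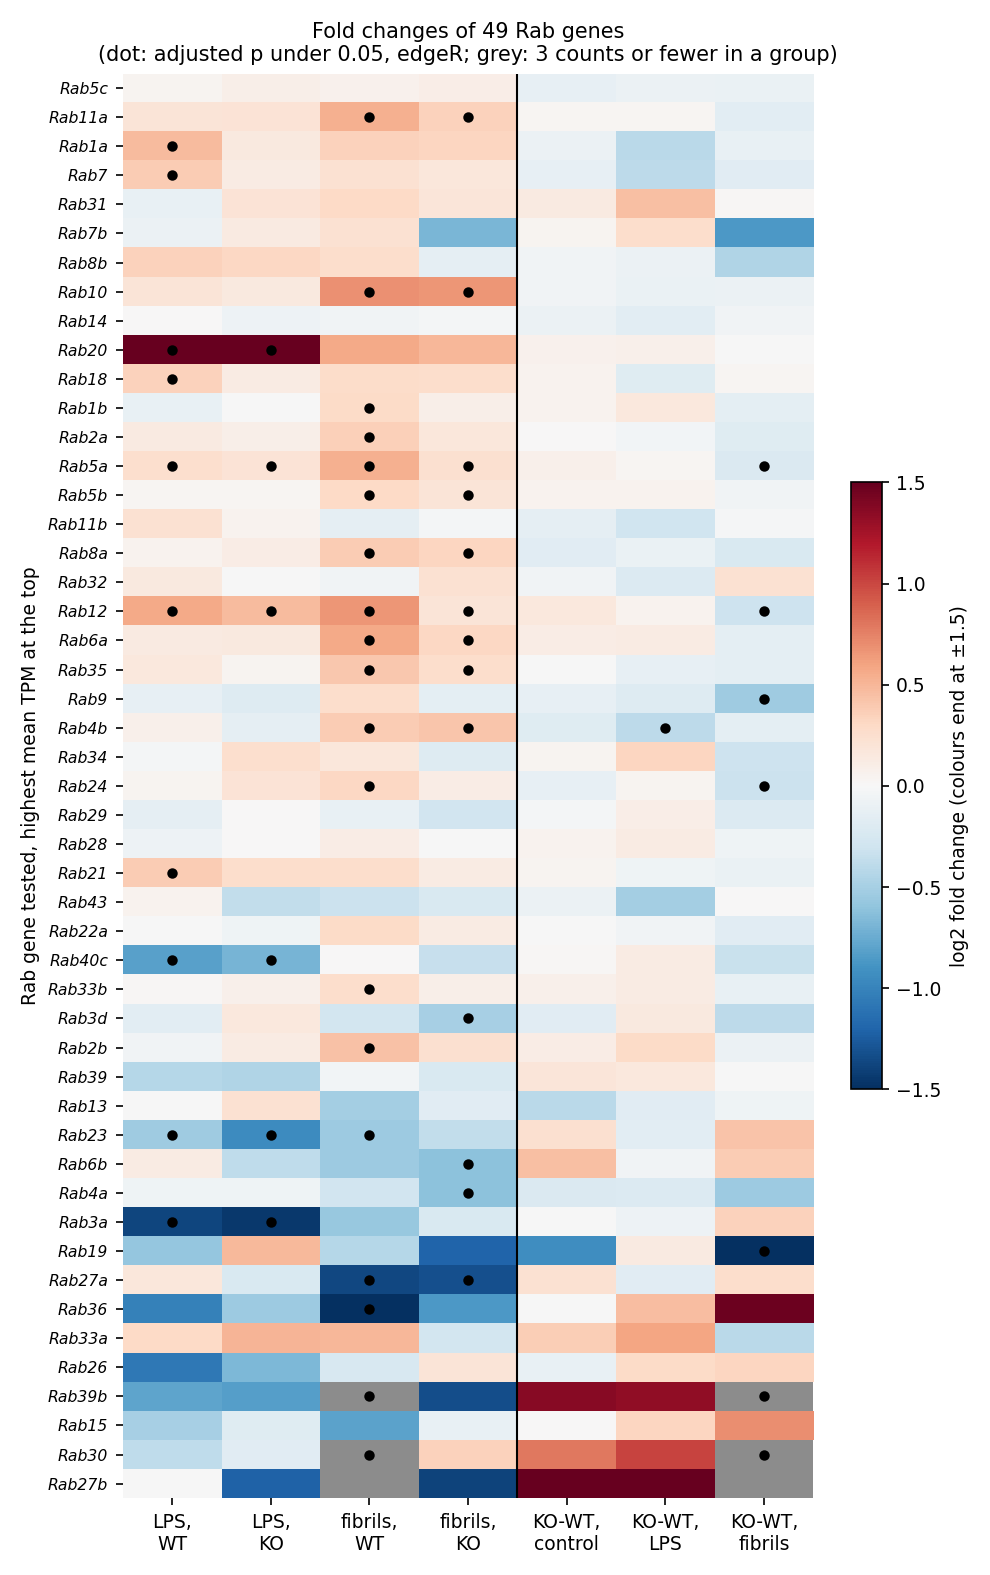
Log2 fold change of the 49 tested Rab genes (rows) in the 4 treatment comparisons and the 3 comparisons of KO with wild type (columns), colours ending at ±1.5, with a dot where the adjusted p was under 0.05 and grey cells where a group had 3 counts or fewer. The 6 genes with dots in both LPS columns are Rab3a, Rab5a, Rab12, Rab20, Rab23 and Rab40c, and the fibril columns hold 19 dots in wild-type and 13 in KO cells.

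The other Lrrk2 substrates were not called with LPS in wild-type cells: of 9 tested substrates (Rab3a, Rab3d, Rab8a, Rab8b, Rab10, Rab12, Rab29, Rab35 and Rab43) Rab12 rose and Rab3a fell in each genotype. Rab10, which brings vesicles to the plasma membrane, had a log2 fold change of 0.19 ± 0.07 in wild-type cells (95% interval 0.04 to 0.34, adjusted p = 0.0878) and 0.15 ± 0.08 in KO cells (adjusted p = 0.263). The wild-type value was called by DESeq2 (0.0287), without the 7 libraries described below (0.0337) and in a fit of the compared groups alone (0.0421). Rab8a, a Rab of post-Golgi and ciliary transport, was at 0.05 ± 0.07 (95% interval -0.10 to 0.20) and 0.11 ± 0.08 (adjusted p = 0.801 and 0.403). Rab29, a trans-Golgi Rab that can recruit Lrrk2 to membranes, was at -0.13 ± 0.17 (95% interval -0.48 to 0.22) and 0.00 ± 0.18 (adjusted p = 0.761 and 0.995).

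With α-synuclein fibrils most of the members called were higher under the main scaling, and the balance of higher and lower calls depended on the scaling. In wild-type cells 19 of 49 members were called, 14 higher and 5 lower, where 29.4% of all genes were called, 13.8% higher and 15.6% lower. The median log2 fold change was 0.23 for the members and -0.05 for all genes. The KO cells had 13 calls, 9 higher and 4 lower, where 23.7% of all genes were called, 12.2% higher and 11.5% lower (medians 0.08 and -0.04). Called in both genotypes were Rab4b, Rab5a, Rab5b, Rab6a, Rab8a, Rab10, Rab11a, Rab12 and Rab35, all higher, and Rab27a, lower. These 10 are 52.6% of the wild-type list and 76.9% of the KO list, and the same overlap was not computed over all genes. Scaled by library size alone, the all-gene median became -0.25 in wild-type and -0.13 in KO cells, and the calls were 7 higher and 11 lower, and 6 higher and 8 lower. The share of all genes called under that scaling is not given here, so these counts are not read as a result about the members. The rises of Rab5a, Rab6a, Rab8a, Rab10, Rab11a, Rab12 and Rab35 in wild-type cells and of Rab4b, Rab6a, Rab8a, Rab10, Rab11a and Rab35 in KO cells were called under both scalings. A fit of only the compared groups called 4 members in KO cells, Rab4b, Rab6a, Rab8a and Rab10, and the share of all genes called in that fit is not given here.

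By abundance, in wild-type cells 11 of the 21 members at 10 to under 100 TPM and 2 of the 11 at 100 TPM or more rose with fibrils and none of these 32 fell, whereas of the 17 tested members under 10 TPM, 1 rose and 5 fell. In KO cells 9 of the 32 rose and none fell, and of the 17 below 10 TPM none rose and 4 fell. The share of all genes called at the same abundance was not computed, so this split is not read as a trait of the family. Over both treatments and genotypes, 20 tested members were called in no treatment comparison, 15 in 1, 11 in 2, Rab23 in 3, and Rab12 and Rab5a in all 4. The same count was not made over all genes, so it is not known whether the family differs from them.

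The Lrrk2 substrates Rab10, Rab12, Rab8a and Rab35 rose with fibrils in both genotypes. Rab10 was at 272, 255, 289.9, 300.4 and 282 CPM in wild-type controls and 454, 484, 438 and 429.7 with fibrils. In KO cells it was at 229 at the lowest, 273 at the median and 310.3 at the highest in controls and 387, 391, 397, 428 and 522 with fibrils. The fibril libraries were above every control library in both genotypes. The log2 fold changes were 0.69 ± 0.08 (1.61-fold, adjusted p = 1.41e-06) and 0.66 ± 0.07 (1.58-fold, adjusted p = 3.42e-07). The opposite-strand transcript Rab10os had a mean count of 389 per library against 7196 for Rab10.

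Rab12 was at 87.3, 88.4, 86.7 and 88.1 CPM in the wild-type fibril libraries, close together and all above the controls. The KO fibril libraries were at 66.6, 70.9, 65.6, 77.8 and 71.2, of which replicates 1 and 3 lay within the KO control range. The log2 fold change was 0.67 ± 0.07 (adjusted p = 6.11e-07) in wild-type and 0.20 ± 0.07 (adjusted p = 0.0341) in KO cells. The KO call was lost without KO control replicate 1, 2, 3 or 6 (adjusted p = 0.0675, 0.0820, 0.0511 and 0.0519) or KO fibril replicate 2, 4 or 5 (0.0534, 0.112 and 0.0586). It was also lost when scaled by library size alone (0.276), with no filter on low counts (0.0911), in a fit of only the compared groups (0.149), with protein-coding transcripts only (0.0599) or without the 7 libraries described below (0.0503). Rab8a was at 98.97, 93.6, 80.3, 108 and 106 CPM in wild-type controls and 129, 132, 124 and 123 with fibrils, without overlap. In KO cells Rab8a was at 77.8 at the lowest, 83.6 at the median and 98.6 at the highest in controls and 102, 106, 101, 113 and 120.2 with fibrils, also without overlap. Its log2 fold changes were 0.38 ± 0.08 (adjusted p = 0.000970) and 0.32 ± 0.07 (adjusted p = 0.00171).

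Rab35, which recycles endosomal cargo to the plasma membrane, had log2 fold changes of 0.40 ± 0.08 and 0.26 ± 0.07 (adjusted p = 0.000649 and 0.00868). The KO call was lost without the 7 libraries described below (0.0711) or in a fit of only the compared groups (0.0593). Rab29 was not called: it was at 25.8, 21.3, 16.9, 23.9 and 24.2 CPM in wild-type controls, 20.1, 21.2, 20.5 and 21.2 with fibrils and 12.05, 15.7, 14.4, 24.8 and 23.1 in KO fibril libraries, where replicates 4 and 5 were well above the other 3. Its log2 fold changes were -0.11 ± 0.19 (95% interval -0.50 to 0.27, adjusted p = 0.689) and -0.29 ± 0.17 (95% interval -0.64 to 0.06, adjusted p = 0.244). Rab3d, a Rab of secretory granules, fell in KO cells by 0.50 ± 0.16 on the log2 scale (adjusted p = 0.0192), a call lost without KO fibril replicate 3 (0.0698) or 5 (0.0683); its wild-type value was -0.28 ± 0.17 (adjusted p = 0.229). Of the 9 tested substrates 4 rose in each genotype, none fell in wild-type and 1 fell in KO cells; their median log2 fold changes were 0.26 and -0.13.

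**Figure D3:**
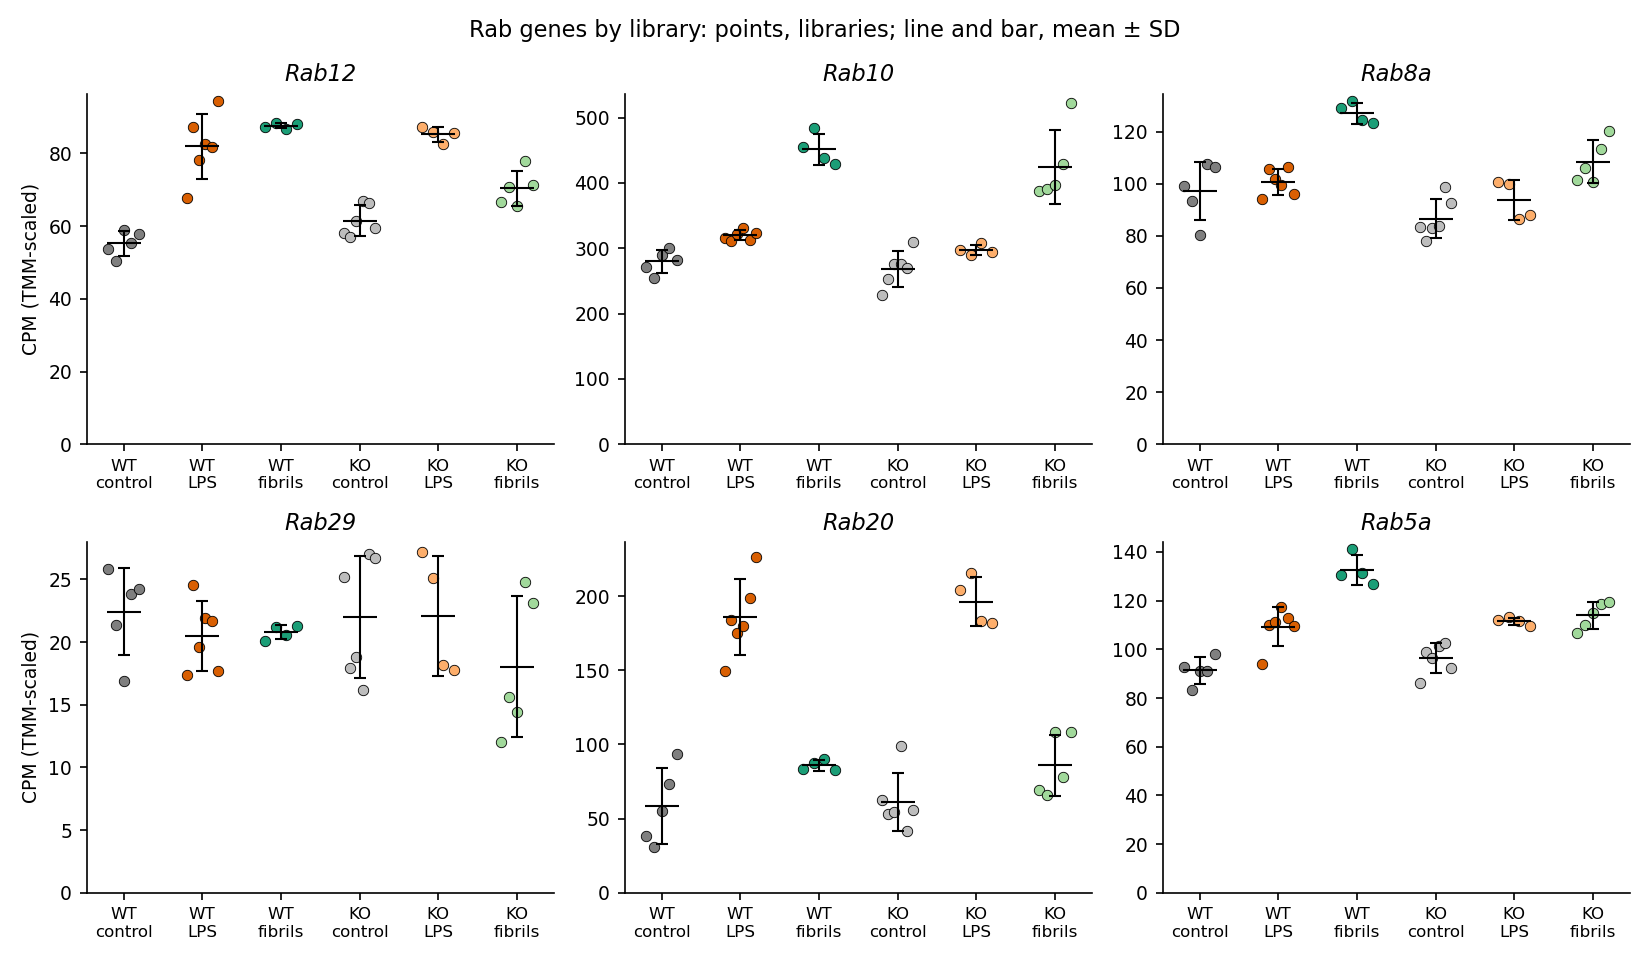
CPM by library (points) with the mean and SD (line and bar) in the 6 groups for single Rab genes, each panel with its own axis starting at 0. Rab12 sits at 86.7 to 88.4 in the 4 wild-type fibril libraries and at 65.6 to 77.8 in the 5 KO fibril libraries, and Rab20 is highest in the LPS groups of both genotypes.

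Among the early endosome Rabs, Rab5a, Rab5b and Rab4b rose in both genotypes (3 of 8 tested), and Rab4a fell in KO cells. Rab5a was at 131, 141, 131 and 127 CPM in wild-type and 107, 109.8, 115, 119 and 119.6 in KO fibril libraries, above every control library of its genotype. Its log2 fold changes were 0.54 ± 0.06 (adjusted p = 1.67e-06) and 0.24 ± 0.06 (adjusted p = 0.00315), the second lost when scaled by library size alone (0.103). Rab4b and Rab4a work in fast recycling from early endosomes; Rab4b had 0.38 ± 0.09 and 0.41 ± 0.08 (adjusted p = 0.00342 and 0.000647). Rab5b had 0.30 ± 0.06 and 0.20 ± 0.06 (adjusted p = 0.000881 and 0.0116). Scaled by library size alone, Rab5b lost its call in both genotypes (0.301 and 0.329) and Rab4b in wild-type cells (0.145). The KO call of Rab5b was also lost in a fit of only the compared groups (0.125). The KO fall of Rab4a was -0.62 ± 0.22 (adjusted p = 0.0363). It was lost without KO control replicate 2 or 5 (0.0695 and 0.0641) or KO fibril replicate 2, 3 or 5 (0.0901, 0.0661 and 0.0769), with no filter on low counts (0.112) and without the 7 libraries (0.0914). Rab4a shares its strand with Gm20388, which had far more counts (means 38.0 and 1919).

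Of 5 tested recycling Rabs, Rab11a and Rab35 rose in both genotypes. Rab11a was at 164, 152, 171, 180.2 and 201 CPM in wild-type controls and 261, 259, 256 and 229 with fibrils, without overlap and with fibril replicate 4 below the other 3. It rose by 0.53 ± 0.10 on the log2 scale in wild-type cells (adjusted p = 0.000355) and by 0.35 ± 0.09 in KO cells (adjusted p = 0.00605). Of 15 tested endoplasmic reticulum and Golgi Rabs, Rab6a (retrograde Golgi transport) rose in both genotypes, by 0.57 ± 0.08 (adjusted p = 1.67e-05) and 0.31 ± 0.07 (adjusted p = 0.00271). Rab1b, Rab2a, Rab2b and Rab33b, which act at or around the Golgi, rose in wild-type cells, with log2 fold changes from 0.26 for Rab33b to 0.44 for Rab2b. Rab33b lost its call with no filter on low counts (0.0664). Scaled by library size alone, the calls of Rab1b, Rab2a, Rab2b and Rab33b were all lost (adjusted p = 0.478, 0.0984, 0.128 and 0.630). Rab6b, a Rab6 form enriched in neurons, fell in KO cells by 0.61 ± 0.20 (adjusted p = 0.0273), a call lost without KO control replicate 2 or 3 (0.0967 and 0.0518) or KO fibril replicate 3 or 5 (0.0974 and 0.0696). Rab6a and Rab2b overlap Mrpl48 (mean counts 2264 and 618) and Tox4 (337 and 2589). The sources used here do not say how reads matching more than one of the related Rab1 or Rab5 genes were counted.

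Rab27a, which docks secretory granules and lysosome-related organelles, was the member that fell in both genotypes with fibrils. It was at 2.48, 2.69, 2.23, 1.76 and 2.16 CPM in wild-type controls and 0.846, 0.671, 1.28 and 0.740 with fibrils. In KO cells it was at 1.49 at the lowest, 2.38 at the median and 4.38 at the highest in controls and 0.982, 1.30, 0.350, 1.88 and 0.771 with fibrils. The wild-type groups did not overlap, all fibril libraries being lower, and in KO cells fibril replicate 4 lay within the control range. The log2 fold changes were -1.36 ± 0.34 (adjusted p = 0.00423) and -1.32 ± 0.31 (adjusted p = 0.00208). Rab24, linked to autophagy, rose in wild-type cells by 0.31 ± 0.10 on the log2 scale (adjusted p = 0.0233), with Prelid1 on the opposite strand at a mean count of 3202 against 437. The call was lost without control replicate 1, 2 or 3 or fibril replicate 3 or 4 (0.0568 to 0.0673) or KO LPS replicate 3 (0.0527). It was also lost when scaled by library size alone (0.289), with no filter on low counts (0.0869) or with the other-cell score as a covariate (0.263). Rab23 fell in wild-type cells by 0.54 ± 0.17 (adjusted p = 0.0201); this was lost without control replicate 2 (0.0799) or fibril replicate 2 (0.0823) and with protein-coding transcripts only (0.269). Rab20 was not called with fibrils (log2 fold change 0.56 ± 0.24 in wild-type, 95% interval 0.08 to 1.05, and 0.49 ± 0.21 in KO cells, adjusted p = 0.0725 and 0.0964).

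Rab30, Rab36 and Rab39b, all called lower with fibrils in wild-type cells, had few reads. Rab39b, a neuronal Rab whose human gene is mutated in a form of parkinsonism, had 50 counts over the 5 wild-type controls and 2 over the 4 fibril libraries, a depth-scaled ratio of 18.6 (95% interval 4.88 to 158). The Golgi Rabs Rab30 and Rab36 had 43 and 66 counts in controls and 2 and 9 with fibrils, ratios of 15.98 (4.16 to 136) and 5.45 (2.70 to 12.4). These intervals cover counting error only. Without fibril replicate 2, which is the deepest library and held no counts of either, the ratios of Rab30 and Rab36 were 10.2 (2.66 to 86.9) and 3.48 (1.73 to 7.94). Without fibril replicate 4 those of Rab36 and Rab39b were 9.70 (3.62 to 36.7) and 29.4 (5.04 to 1184). The edgeR calls had adjusted p = 0.00941 for Rab39b, 0.0258 for Rab30 and 0.0329 for Rab36. That of Rab30 was lost without control replicate 1 (0.0523) or fibril replicate 1, 2 or 4 (0.0767, 0.0915 and 0.0703). That of Rab36 was lost without control replicate 3 (0.120) or fibril replicate 1, 2 or 3 (0.0829, 0.107 and 0.0659), with no filter on low counts (0.0562) or with protein-coding transcripts only (0.0691).

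The markers of other brain cells, taken as a set, were also lowest on average in the wild-type fibril libraries. Their summed level was 133 to 152 CPM in wild-type fibril libraries, 152 to 500 in wild-type controls, 133 to 541 in wild-type LPS, 214 to 503 in KO fibril, 175 to 654 in KO LPS and 222 to 1097 in KO control libraries. Mobp, Mog and Gad1 were at 0 in every wild-type fibril library, but Flt1 averaged 13.4 CPM there against 5.51 in wild-type controls. By cell type, mean log2 CPM in wild-type fibril against control libraries was 0.26 against 2.44 for astrocytes and -0.37 against 0.92 for oligodendrocytes. It was -2.02 against -0.14 for neurons, -2.27 against 1.04 for fibroblasts and 1.93 against 1.85 for endothelium, which was thus not lower. The summed level of Rab27b, Rab30, Rab36 and Rab39b was 0.0305 to 0.370 CPM in wild-type fibril libraries, 0.584 to 2.57 in wild-type controls, 0.288 to 1.81 in wild-type LPS, 0.915 to 2.68 in KO fibril, 0.814 to 3.77 in KO LPS and 0.822 to 7.53 in KO control libraries. The wild-type fibril range thus overlapped that of the wild-type LPS libraries in both measures. Rab30, Rab36 and Rab39b were summed because they were called lower in wild-type fibril libraries, so a low sum there was largely set in advance. Other tested members under 1 TPM overlapped the wild-type controls. Rab15 was at 0.0915 to 0.267 CPM with fibrils and 0 to 0.587 in controls. Rab26 was at 0.0608 to 0.401 and 0.0597 to 0.507, and Rab33a at 0.211 to 0.312 and 0 to 0.456. The mean log2 marker score did not overlap between wild-type fibril (-0.76 to -0.40) and wild-type control libraries (-0.29 to 2.68), so a fit with it cannot separate it from treatment. With the marker score as a covariate, a setting chosen after seeing the data, 16 members were called with fibrils in wild-type cells (12 higher, 4 lower, where 15.9% of all genes were called). The falls of Rab30, Rab36, Rab39b and Rab23 were no longer called (adjusted p = 0.299, 0.442, 0.212 and 0.0739), nor were the rises of Rab2b and Rab24 (0.162 and 0.263). Rab3d, Rab19 and Rab43 became calls, all lower. The other 12 rises were still called, those of Rab12, Rab10 and Rab5a with log2 fold changes of 0.55 ± 0.08, 0.62 ± 0.09 and 0.46 ± 0.07 (adjusted p = 2.66e-05, 6.45e-05 and 9.27e-05). Leaving out 7 libraries that stood apart in an earlier look at these data, by their RNA makeup, depth or markers and with no fixed cut-off, gave 30 calls of 50 tested members, 24 higher and 6 lower, where 40.2% of all genes were called.

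**Figure D4:**
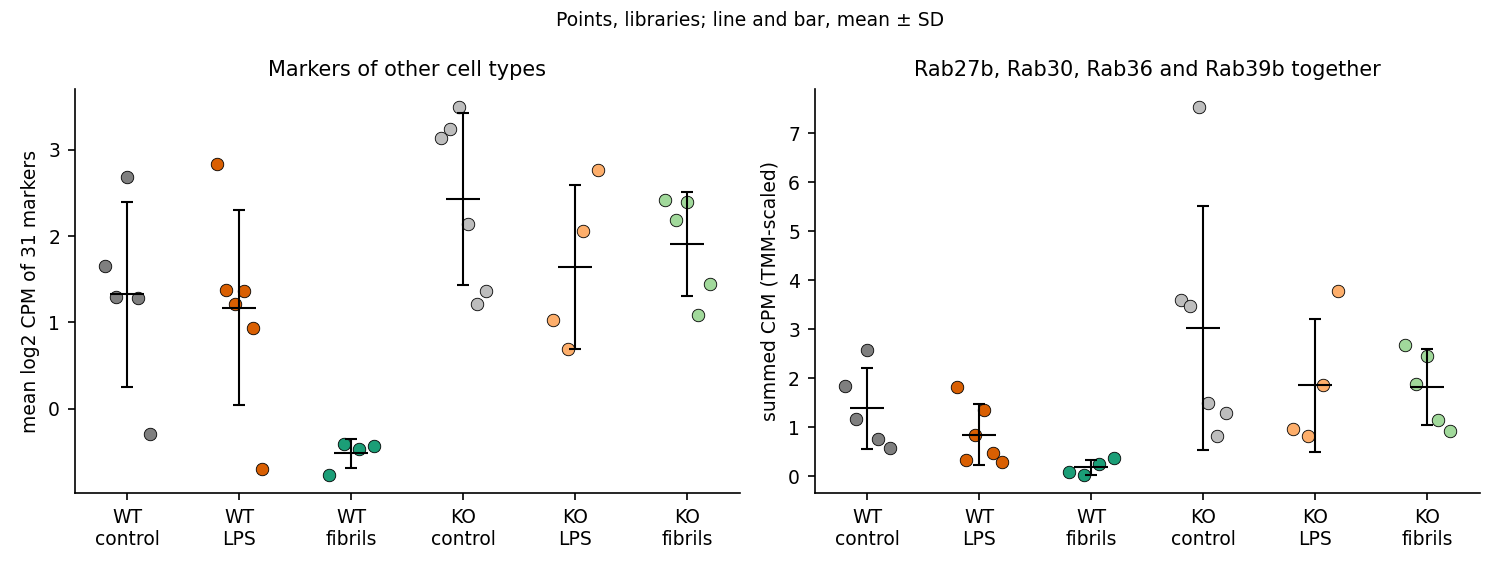
Mean log2 CPM of the other-cell markers (left) and summed CPM of Rab27b, Rab30, Rab36 and Rab39b (right) by library (points), with the mean and SD per group (line and bar). The 4 wild-type fibril libraries sit at -0.76 to -0.40 on the left and at 0.0305 to 0.370 on the right, and the lowest wild-type LPS libraries lie within both ranges. Rab30, Rab36 and Rab39b were chosen because they were called lower in the wild-type fibril libraries.

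The comparison of KO with wild type asks what loss of the kinase does to expression of its substrates and their family. In control cells no member was called (edgeR; 5 had an unadjusted p under 0.05, and DESeq2 called 0), and 0.321% of all genes were. Rab12 had a log2 fold change of 0.16 ± 0.07 (adjusted p = 0.630), Rab10 -0.06 ± 0.07 (0.943), Rab8a -0.17 ± 0.07 (0.630) and Rab29 -0.03 ± 0.17 (0.990). Their 95% intervals ran from 0.02 to 0.29, -0.21 to 0.09, -0.32 to -0.02 and -0.38 to 0.32. Rab27b, a Rab27a relative found in secretory cells, had 128 counts over the 6 KO controls and 7 over the 5 wild-type controls, a depth-scaled ratio of 18.0 (95% counting interval 8.47 to 45.5), and was not called (adjusted p = 0.336). No wild-type library held more than 4 of its counts, so it passed the low-count filter through KO libraries alone. The interval covers counting error only, and the ratio is not read as a genotype difference. KO control replicate 3, which also had the highest other-cell score (3.49), held 73 of the 128 counts. Without it the ratio was 9.92 (4.51 to 25.8), and without wild-type control replicate 2 it was 35.1 (11.7 to 172).

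With LPS 1 member was called between genotypes, where 1.73% of all genes were, and 9 members had an unadjusted p under 0.05. Rab4b was lower in KO cells: it was at 21.5 at the lowest, 24.8 at the median and 27.5 at the highest CPM in the 6 wild-type and 18.2, 18.1, 21.7 and 18.0 in the KO LPS libraries. KO replicate 3 was well above the other 3, and lay just above the lowest wild-type library, the other KO libraries lying below all 6. The log2 fold change was -0.40 ± 0.09 (adjusted p = 0.0240). The call was lost without KO replicate 1, 2 or 4 (0.102, 0.0741 and 0.104) or wild-type replicate 6 (0.0606), scaled by library size alone (0.0826), with no filter on low counts (0.0553) or with protein-coding transcripts only (0.0767), and the difference of the LPS responses was -0.22 ± 0.12 (adjusted p = 0.992). Rab12, Rab10, Rab8a and Rab29 differed by 0.06 ± 0.07, -0.11 ± 0.08, -0.10 ± 0.08 and 0.10 ± 0.18 on the log2 scale and were not called.

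With fibrils 7 members were called between genotypes, 2 higher in KO cells (Rab30 and Rab39b) and 5 lower (Rab5a, Rab9, Rab12, Rab19 and Rab24), where 8.94% of all genes were called, 5.27% higher and 3.67% lower. The members' median was -0.10 and that of all genes 0.01. Of the 9 tested substrates Rab12 alone was called. Its 4 wild-type libraries were above all 5 KO libraries (values above), with a log2 fold change of -0.32 ± 0.07 (19.6% lower, adjusted p = 0.0124), and the call held without each of the 9 libraries in turn. Rab10 (-0.09 ± 0.08, adjusted p = 0.561), Rab8a (-0.23 ± 0.08, 0.0698) and Rab29 (-0.21 ± 0.19, 0.546) were not called. The Rab8a values, given above, did not overlap between genotypes, and of the libraries left out singly only KO replicate 5 made it a call (0.0452).

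Rab9, which returns receptors from late endosomes to the Golgi, was at 42.1, 47.3, 44.5 and 40.1 CPM in wild-type and 33.4, 29.8, 22.9, 34.3 and 29.8 in KO fibril libraries. Rab5a was at the levels given above, Rab24 at 24.2, 22.9, 25.8 and 25.3 and 18.8, 19.5, 20.5, 20.4 and 19.2, and Rab19 at 1.20, 1.31, 1.52 and 1.69 and 0.312, 0.335, 0.04999, 0.993 and 0.482. In these 4 genes, picked because they were called, no KO library reached a wild-type library. How often this holds over all genes was not counted, and the wild-type fibril libraries varied least among themselves, as given above. The log2 fold changes were -0.53 ± 0.15 for Rab9, -0.22 ± 0.06 for Rab5a, -0.32 ± 0.10 for Rab24 and -1.71 ± 0.53 for Rab19 (adjusted p = 0.0275, 0.0350, 0.0458 and 0.0411). Rab39b had 44 counts over the 5 KO and 2 over the 4 wild-type fibril libraries (depth-scaled ratio 18.8, 4.90 to 160; 29.7 without wild-type replicate 4), and Rab30 had 82 and 2 (35.0, 9.38 to 294; 22.3 without wild-type replicate 2), with adjusted p = 0.0264 and 0.0170.

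Each of these 6 calls was lost when single libraries were left out. Rab9 was lost without KO replicate 3 (0.0800) or wild-type replicate 1, 2, 3 or 4 (0.0511 to 0.0856). Rab5a was lost without KO replicate 1, 2 or 3 or any wild-type replicate (0.0529 to 0.123), and Rab19 and Rab24 without any library but KO replicate 4 (0.0576 to 0.0970 and 0.0569 to 0.115). Rab30 was lost without wild-type replicate 1, 2 or 4 (0.0574 to 0.0688), and Rab39b without KO replicate 1 or 3 or any wild-type replicate (0.0502 to 0.0869). With no filter on low counts the 5 lower members were not called, Rab12 at an adjusted p of 0.0542. A fit of the compared groups alone called 3 members, with the share of all genes not given here, and RLE scaling ended the calls of Rab5a and Rab24 (0.0694 and 0.0780).

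The difference in other-cell markers between these groups was described above, and the 4 wild-type fibril libraries are common to this comparison and the fibril response. With the marker score as a covariate 0 members were called between genotypes, where 0.355% of all genes were, and Rab12 had -0.16 ± 0.08 (adjusted p = 0.607). The score did not overlap between the groups compared (-0.76 to -0.40 in wild-type and 1.09 to 2.41 in KO fibril libraries), so this fit cannot separate it from genotype. Without the 7 libraries 11 members were called, 2 higher and 9 lower, where 17.7% of all genes were, and Rab12 had -0.32 ± 0.06 (adjusted p = 0.00282). Scaled by library size alone, which gave an all-gene median of 0.16, the calls were 2 higher and 1 lower, and Rab12 was not called (-0.17 ± 0.07, adjusted p = 0.104). The share of all genes called under that scaling is not given here.

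Whether the responses themselves differed between genotypes was tested as an interaction. For LPS no member was called, 0% of all genes were, and no member had an unadjusted p under 0.05. The Rab genes with the smallest p were Rab23 (-0.41 ± 0.23, adjusted p = 0.992) and Rab4b (-0.22 ± 0.12, adjusted p = 0.992). For fibrils no member was called either, 0% of all genes were, and 5 members had an unadjusted p under 0.05, with a median of -0.11 for the members and 0.02 for all genes. The 2 with the smallest p were Rab12, with -0.47 ± 0.10 on the log2 scale (KO response minus wild-type response, adjusted p = 0.200), and Rab5a, with -0.29 ± 0.09 (adjusted p = 0.283). DESeq2 gave Rab12 -0.44 ± 0.09 (adjusted p = 0.00481) and called it alone among the members. Without the 7 libraries both were called, Rab12 at -0.49 ± 0.09 (adjusted p = 0.0179) and Rab5a at -0.39 ± 0.08 (0.0209), where 1.72% of all genes were called. With the marker score as a covariate neither was called (0.448 and 0.691), under the limit given above for that fit. Rab10 had -0.03 ± 0.11 (95% interval -0.26 to 0.20, adjusted p = 0.947).

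**Figure D5:**
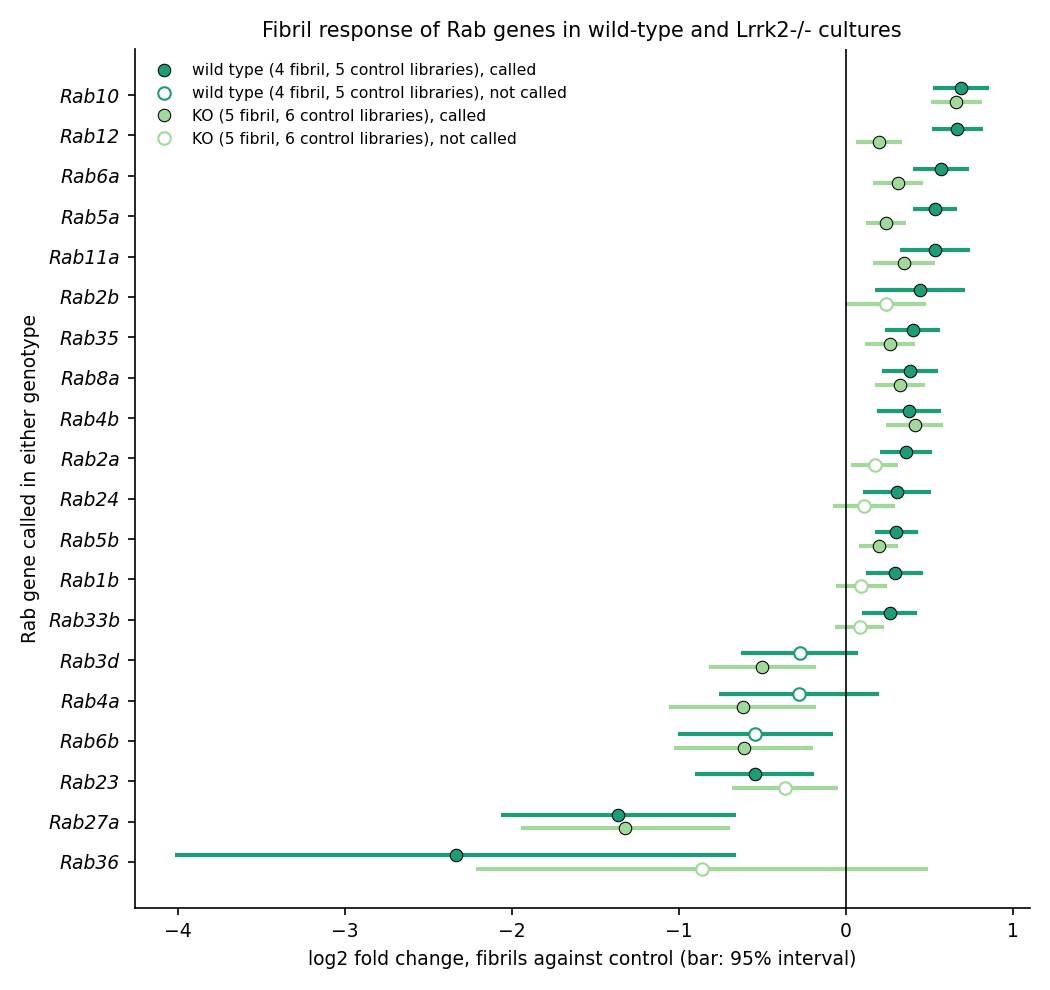
Log2 fold change of fibrils against control with its 95% interval, in wild-type and KO cells, for Rab genes called in either genotype other than Rab30 and Rab39b, which had 2 counts in the wild-type fibril group. Rab10 lies at 0.69 and 0.66, Rab12 at 0.67 in wild-type and 0.20 in KO cells.

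The proteins that switch, carry and read Rabs were taken from lists by role. The share of all genes called, given once for each comparison, is the background for every list's count. Of 39 tested exchange factors 4 rose and 2 fell with LPS in wild-type cells and 2 rose and 3 fell in KO cells, where 15.1% and 13.7% of all genes were called. Rabgef1, the exchange factor of Rab5, rose by 2.18 ± 0.16 (adjusted p = 3.17e-11) and 2.00 ± 0.15 (adjusted p = 1.77e-10) on the log2 scale. C9orf72, which forms a complex with Smcr8 that regulates Rabs, rose by 1.23 ± 0.14 (adjusted p = 2.33e-07) and 1.32 ± 0.15 (adjusted p = 1.48e-07). Of 34 tested effectors 5 rose and 1 fell in wild-type and 3 rose and 4 fell in KO cells, led by the Rab11 effector Rab11fip1, higher by 2.22 ± 0.23 (adjusted p = 2.72e-08) and 2.27 ± 0.23 (adjusted p = 2.48e-08), and the Rab8 effector Optn, higher by 1.25 ± 0.17 (adjusted p = 3.76e-06) and 0.95 ± 0.18 (adjusted p = 0.000305). Of 35 tested TBC-domain GAPs 1 rose and 1 fell in wild-type and 2 rose and 3 fell in KO cells. Of the 10 GDI, escort and prenylation genes none was called. Spag9, a scaffold that binds Lrrk2-phosphorylated Rabs, was the one partner of 13 called, higher by 0.76 ± 0.13 (adjusted p = 8.13e-05) and 0.56 ± 0.14 (adjusted p = 0.00470).

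With fibrils 5 exchange factors rose and 9 fell in wild-type cells and 5 rose and 6 fell in KO cells, of 39 tested in each, where 29.4% and 23.7% of all genes were called. C9orf72 rose by 1.11 ± 0.15 (adjusted p = 1.03e-05) and 0.41 ± 0.14 (adjusted p = 0.0304), and Rab3il1, an exchange factor of Rab8, fell by 0.53 ± 0.12 (adjusted p = 0.00175) and 0.88 ± 0.11 (adjusted p = 1.70e-06). Among the 35 GAPs 5 rose and 6 fell in wild-type and 3 rose and 7 fell in KO cells. Tbc1d4, a GAP for Rab10, fell by 1.28 ± 0.22 (adjusted p = 0.000123) and 1.63 ± 0.20 (adjusted p = 1.58e-06). The escort protein gene Chm rose by 0.59 ± 0.09 (adjusted p = 2.54e-05) and 0.27 ± 0.08 (adjusted p = 0.0138), and Rabif, a chaperone of Rab10, by 0.51 ± 0.09 (adjusted p = 0.000114) and 0.24 ± 0.08 (adjusted p = 0.0243). With Rabggtb in wild-type cells these were the 3 and 2 of 10 called. The 34 effectors had 4 higher and 4 lower calls in wild-type and 8 and 5 in KO cells, with Rabep1, a Rab5 effector, at 0.61 ± 0.10 (adjusted p = 0.000114) and 0.26 ± 0.09 (adjusted p = 0.0480). Among the partners the retromer genes Vps26a, Vps29 and Vps35 and the Rab-binding Rilpl2 rose in wild-type cells, Vps26a by 0.50 ± 0.12 (adjusted p = 0.00342). None of the 13 was called higher in KO cells. Their fibril responses were not shown to differ between genotypes, with 0 of 13 called in the interaction, where 0% of all genes were. Values of these genes under other scalings are not given here. The paralogue Lrrk1 fell by 0.64 ± 0.15 (adjusted p = 0.00319) and 0.63 ± 0.14 (adjusted p = 0.00140).

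Between genotypes none of these genes was called in controls, where 0.321% of all genes were. With LPS, where 1.73% of all genes were called, the exchange factor Madd (-0.48 ± 0.12, adjusted p = 0.0336) and the prenylated-Rab-acceptor relative Arl6ip5 (-0.47 ± 0.12, adjusted p = 0.0397) were lower in KO cells. With fibrils, where 3.67% of all genes were called lower and 5.27% higher, 4 of 39 exchange factors were lower in KO cells, among them C9orf72 (-0.55 ± 0.15, adjusted p = 0.0260) and Rab3il1 (-0.44 ± 0.12, adjusted p = 0.0224). Also lower were 1 of 35 GAPs (Tbc1d23), 3 of 34 effectors (Appl2, Rabep1 and Plekhm2) and the partner Vps26a (-0.39 ± 0.12, adjusted p = 0.0458). Of the 3 effectors higher in KO cells, Bicd1, a Rab6 effector, had 109 counts over the KO and 2 over the wild-type fibril libraries (depth-scaled ratio 46.5, 12.6 to 389). The ratio was 29.7 without KO replicate 1, which held 54 of the counts, or without wild-type replicate 2, and 69.96 and 73.6 without wild-type replicate 1 or 4. The other two were Appl1, a Rab5 effector (0.47 ± 0.13, adjusted p = 0.0293), and the low-count Rab11fip4.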

How the data were processed

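Per the labels, RNA was extracted with Trizol and made into stranded, ribosomal RNA-depleted libraries, read as single ends. CASAVA 1.7.1 for base calls and STAR 2.4.2a with mm10 for alignment are named in the submitters' processing notes; the sources used here do not give the counting program or its strand setting. Values in the deposited table are expected counts per Ensembl transcript, given by the authors as whole numbers without normalization. These were summed to genes with GENCODE mouse M21 (91320 of 94647 transcripts matched; the other 3327 held 0.779% to 0.891% of a library's counts and were left out). No libraries were identical.

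Genes passing edgeR's low-count filter for the 6 groups (14346) were scaled with TMM factors (0.827 to 1.14), which also give CPM, and tested in edgeR 4.0.16 under R 4.3.3 with a quasi-likelihood model of 1 mean per group over all 30 libraries (24 residual degrees of freedom). p-values were adjusted by Benjamini-Hochberg over all tested genes in each of 9 comparisons. The SE of a log2 fold change is its size over the square root of the F statistic. TPM was computed from transcript counts over transcript lengths. The script was tested on simulated data.

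The members, the role and pathway lists and the rule for named genes were chosen with earlier results of these data known. The rule takes up to 6 called members per direction and comparison with the smallest p (the 2 smallest where none was called), Rab8a, Rab10, Rab12, Rab29, the 5 most abundant members, up to 4 called pathway genes per list and comparison, and genes behind counts of 5 or fewer; of the pathway genes, not all are printed, and called members outside the rule (such as Rab18 and Rab24) were named after their values were seen. Same-numbered libraries varied together in part, judged by correlation over genes after taking off group means. For LPS against control in wild-type cells it was over 0.1 in 4 of 5 pairs (up to 0.65), and 3 matched their own number best. It was over 0.1 in 4 of 5 pairs for fibrils in KO cells and for KO against wild type in controls. In the other comparisons it was over 0.1 in at most 2 of 4 pairs. The labels name no block, so the main fit has none, and counts with a replicate block are given below.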

Additional observations from a re-analysis of the deposited data

Results flagged for a closer look

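Among the named Rab genes 174 groups of 4 to 6 libraries were examined for a library that stands apart from the others of its group by Dixon's ratio, and 12 did; chance alone gives about 1 in 20. Values are CPM. In wild-type control libraries, Rab4b was at 19.1 in replicate 1 (23.9 to 25.9 in the others), Rab36 at 1.43 in replicate 3 (0.264 to 0.597) and Rab9 at 51.2 in replicate 6 (29.4 to 34.7). Replicate 6 is among the 7 libraries left out together in one setting. In wild-type LPS libraries Rab5a was at 94.0 in replicate 1 (109 to 117), also one of those 7.

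In wild-type fibril libraries, replicate 4 was lower for Rab6a (120.4, against 135.8 to 138.8) and Rab11a (229 against 256 to 261) and was the single library with counts of Rab27b (0.0529, with 0 in the others). Replicate 2 was lower for Rab23 (3.69, against 4.60 to 4.74), and replicate 3 alone held counts of Rab30 (0.122, with 0 in the others). Among KO libraries, Rab20 was at 98.8 in control replicate 4 (41.9 to 62.3), another of the 7, Rab4b at 21.7 in LPS replicate 3 (18.0 to 18.2), and Rab27b at 1.29 in LPS replicate 4 (0 to 0.163).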

How the results depend on the processing

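The 77 values of named Rab genes were recomputed under each alternative that applied, 1580 recomputed values in all, of which 1431 kept the direction and the side of the threshold, 140 lost a call, 9 gained one and none turned a called direction; 40 uncalled values changed sign. The number of Rab genes called was within 1.5 times the main number except in the following cases, whose cause was not tested. Shares of all genes called are given above only for fibril comparisons with the covariate or without the 7 libraries. For the other settings, including the replicate block, they are not given, so those counts are not compared with all genes. For fibrils in wild-type cells (19 called) leaving out the 7 libraries gave 30, and in KO cells (13) a fit of only the compared groups gave 4. For KO against wild type with LPS (1 called), DESeq2 gave 4, only the compared groups 4, leaving out the 7 libraries 7, no filter on low counts 0, protein-coding transcripts only 0, and leaving out single libraries 0 to 2. For KO against wild type with fibrils (7 called), leaving out the 7 libraries gave 11, library size as the only scaling 3, no filter 2, only the compared groups 3, the marker score as a covariate 0, and leaving out single libraries 1 to 7. For the fibril interaction (0 called) DESeq2 gave 1 and leaving out the 7 libraries 2. With replicate number as a block (replicate block), LPS called 12 members in wild-type and 8 in KO cells, and fibrils 26 and 13. KO against wild type called 0, 1 and 11 in control, LPS and fibril cells. Same-numbered libraries varied together in part, as given above, and what a shared number means is not stated in the labels. The covariate and the 7 left-out libraries (wild-type LPS replicates 1 and 6, wild-type control replicate 6, KO fibril replicate 5, KO control replicates 1, 4 and 6) were chosen after seeing the data. Depth limits the members under 1 TPM, of which 10 were not tested.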
